A study of Mus musculus with 9 samples.

Results

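The 2'-5'-oligoadenylate synthetase genes of the mouse were followed across all 9 brain arrays of the series. Members were the probe sets whose single gene symbol in the platform annotation was Oas1a, Oas1b, Oas1g, Oas2, Oas3, Oasl1 or Oasl2, which gave 6 of the 45101 probe sets, 1 each for 6 of the 7 genes, among 18193 genes named by a single symbol. No probe set carried Oas1g as its single symbol, and this gene was not analysed here. Each array held RNA of tissue around the striatal injection sites of 1 adult male BALB/c mouse, taken after 2 days. HS mice (n = 3) received BV-HSVtk, a baculovirus vector, purified by high-speed centrifugation, MC+HS mice (n = 3) the same vector purified by membrane chromatography combined with high-speed centrifugation, and mock mice (n = 3) Sf9 insect cell culture medium without baculovirus that had gone through the MC+HS purification. The vector dose was 100000000 viral particles in 10 µL on each side. All mice were thus injected, none was left untouched, and in HS against mock both the vector and the purification differed, so that they cannot be told apart. The replicates are separate animals per the labels.

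Oligoadenylate synthetases are interferon-induced enzymes that detect double-stranded RNA in the cytosol. On binding it they join ATP into 2'-5'-linked oligoadenylates, which act as second messengers of the antiviral response. In the brain both glia and neurons can induce these genes when they receive type I interferon. The family differs in function: Oas1a, Oas2 and Oas3 are synthetases, with Oas3 the largest and responsive to long double-stranded RNA. Oas1b is the flavivirus resistance gene of mice, which carries a premature stop codon in most classical inbred strains, and the C57BL/6J gene table lists it as a transcribed pseudogene. Oasl1 and Oasl2 carry ubiquitin-like domains. Oasl1 lacks synthetase activity and represses translation of the mRNA of the interferon regulator Irf7, while Oasl2 has kept synthetase activity.

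All 6 genes lie on chromosome 5, with Oasl2 and Oasl1 in one cluster and Oas2, Oas3, Oas1b and Oas1a in another that also holds Oas1g. The start regions are shown because the 6 genes moved together in the data below. RefSeq windows of 300 bases on GRCm38.p6, 250 before the annotated start and 50 from it on, were found for 5 of the 7 member genes, and were not given for Oas1b and Oas2. They were searched on both strands for the GAAA repeat of interferon-stimulated response elements, spelled GAAANNGAAA or GAAANGAAA, and matches are in capitals. A match is a description of letters and not a binding site.
Oas1a (chr5:120907476-120907775, minus strand): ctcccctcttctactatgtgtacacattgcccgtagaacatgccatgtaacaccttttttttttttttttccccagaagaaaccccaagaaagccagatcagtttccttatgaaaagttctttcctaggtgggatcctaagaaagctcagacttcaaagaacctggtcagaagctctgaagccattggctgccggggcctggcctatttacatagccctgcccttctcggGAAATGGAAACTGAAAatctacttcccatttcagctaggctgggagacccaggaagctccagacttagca
Oas3 (chr5:120777610-120777909, minus strand): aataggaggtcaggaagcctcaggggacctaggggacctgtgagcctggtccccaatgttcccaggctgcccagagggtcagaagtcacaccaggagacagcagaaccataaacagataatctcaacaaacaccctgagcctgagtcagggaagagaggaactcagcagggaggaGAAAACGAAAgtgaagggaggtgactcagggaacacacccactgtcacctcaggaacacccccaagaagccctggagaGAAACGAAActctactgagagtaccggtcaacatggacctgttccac
Oasl1 (chr5:114922990-114923289, plus strand): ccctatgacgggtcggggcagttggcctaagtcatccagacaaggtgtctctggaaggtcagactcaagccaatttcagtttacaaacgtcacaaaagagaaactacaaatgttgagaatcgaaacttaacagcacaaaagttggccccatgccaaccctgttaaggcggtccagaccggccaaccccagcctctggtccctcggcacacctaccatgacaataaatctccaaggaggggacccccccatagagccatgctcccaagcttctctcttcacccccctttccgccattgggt
Oasl2 (chr5:114896684-114896983, plus strand): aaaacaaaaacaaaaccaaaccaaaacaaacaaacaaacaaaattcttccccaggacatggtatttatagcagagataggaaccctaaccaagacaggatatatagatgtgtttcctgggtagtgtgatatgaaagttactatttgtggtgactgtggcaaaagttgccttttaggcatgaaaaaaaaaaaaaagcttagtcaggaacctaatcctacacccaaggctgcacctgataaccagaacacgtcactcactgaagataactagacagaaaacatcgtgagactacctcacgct
The Oas1a window held 2 overlapping GAAANNGAAA matches, GAAATGGAAA from -20 to -11 and GAAACTGAAA from -14 to -5, counted from the start at 1. Both matches stood unchanged in the window of Oas1g, which was 85.3% identical to that of Oas1a over 306 aligned columns. Whether the Oas1a probe set also takes up transcripts of such relatives was not tested, and its values are uncertain to that extent. In Oas3 a GAAANNGAAA match lay from -75 to -66 and a GAAANGAAA match from 4 to 12. The windows of Oasl1 and Oasl2 had no match to either spelling. Of all 32851 windows in the table, 3.44% held GAAANNGAAA, 3.17% GAAANGAAA and 6.27% either of them.

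**Figure D1:**
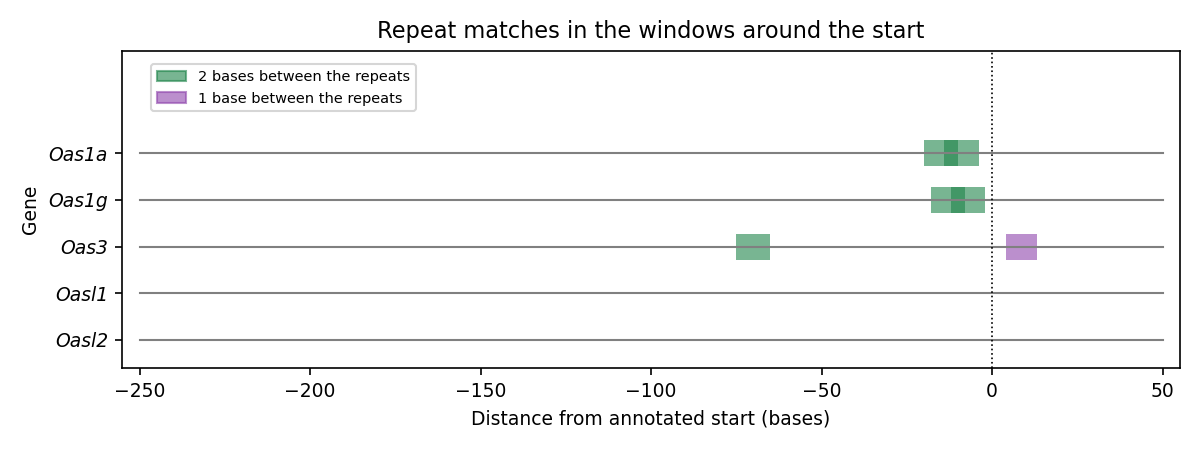
Positions of the repeat matches in the windows of 5 Oas genes (rows), in bases from the annotated start (x axis), with green for 2 bases and purple for 1 base between the repeats and darker green where matches overlap. The matches of Oas1a and Oas1g lie just before the start, those of Oas3 on either side of it, and Oasl1 and Oasl2 have none.

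A pair of arrays stood apart in ways that touch these genes. HS replicate 1 had a median correlation with the other arrays of 0.805, against 0.972 to 0.982 for the other 8, and a Gapdh 3'/5' signal ratio of 2.00, against 0.865 to 0.932. Mock replicate 2, with a median correlation of 0.981 and a ratio of 0.872, had raised Oas signals, as given below. Values without these arrays are printed for many, but not all, of the genes where a call or a direction turned or a fold moved much. Array medians lay between 147 and 263 intensity units and were aligned on the log2(signal + 16) scale before any difference was taken. The neuronal markers Snap25, Syt1, Rbfox3, Gad1 and Slc17a7 had a median percentile of 99.7 on the mock arrays, and 4 markers of striatal medium spiny neurons one of 93.6.

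All 6 Oas genes were higher in HS brains than in mock brains, by 4.91- to 8.01-fold, and 5 of them passed the test (limma on all probe sets, Benjamini-Hochberg adjusted p under 0.05). Of all 28257 probe sets tested, 0.747% were called higher in this comparison. The median member differed by 2.50 on the log2 scale, against -0.21 over all probe sets tested. Because this is bulk tissue, more RNA per cell and more cells that express a gene cannot be told apart.

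Oas1a had deposited signals of 2379, 3615 and 6333 intensity units in HS brains and 2605, 3434 and 3187 in MC+HS brains, against 355, 1200 and 459 in mock brains. Every vector array lay above every mock array, and mock replicate 2 lay well above the other mock arrays. In HS brains the gene was 5.17-fold higher than in mock (log2 difference 2.37 ± 0.39, SE; limma adjusted p = 0.0303), and in MC+HS brains 5.04-fold higher (2.33 ± 0.39, limma adjusted p = 0.0419). It passed in 12 of 21 alternative settings in HS against mock and in 11 of 21 in MC+HS against mock.

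Oas1b had signals of 330, 615 and 1108 in HS brains and 667, 703 and 542 in MC+HS brains, against 75.1, 157 and 19.8 in mock brains. The groups did not overlap, although mock replicate 3 was so dim, at the 15.6th percentile of its array, that the size of the fold rests on the pseudocount of 16. It was 6.16-fold higher in HS than in mock (2.62 ± 0.47, limma adjusted p = 0.0484) and 7.73-fold higher in MC+HS (2.95 ± 0.47, limma adjusted p = 0.0354). Of the called members it lay nearest the threshold in HS against mock, and it was past the threshold in 7 of 21 alternative settings there and in 11 of 21 in MC+HS against mock. Among those without a call in HS against mock were a pseudocount of 1 (limma adjusted p = 0.0827), no filter (0.0756), a filter at the 60th percentile (0.0603), no intensity trend (0.0679), a robust prior (0.0552) and a replicate block (0.0908).

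Oas2, whose protein holds tandem synthetase domains, had signals of 1003, 1367 and 2161 in HS brains and 968, 1298 and 950 in MC+HS brains, against 75.4, 325 and 97.0 in mock brains. The groups did not overlap, and mock replicate 2 was again the high mock array. Its increase of 7.76-fold in HS (2.96 ± 0.39, limma adjusted p = 0.0111) and of 6.95-fold in MC+HS (2.80 ± 0.39, limma adjusted p = 0.0194) passed in both comparisons. Without mock replicate 2 the log2 difference was 3.46 ± 0.23 in HS and 3.31 ± 0.23 in MC+HS. The mock arrays of Oas2 lay at the 36.7th, 61.6th and 40.4th percentile, so it too met the filter on 3 arrays only with vector arrays. Without a filter its limma adjusted p was 0.0151 in HS and 0.0270 in MC+HS.

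Oas3 had signals of 182, 347 and 386 in HS brains and 237, 219 and 205 in MC+HS brains, against 20.5, 40.5 and 47.2 in mock brains. It had the lowest mean of the 6 probe sets in mock, between the 16.9th and 26.3rd percentile of the arrays, the groups did not overlap, and mock replicate 2 was not its high mock array. It rose 4.91-fold in HS (2.29 ± 0.25, limma adjusted p = 0.00454) and 4.57-fold in MC+HS (2.19 ± 0.25, limma adjusted p = 0.00782). All mock arrays of Oas3 lay under the 40th percentile filter, so it entered the test only through the vector arrays. Without a filter its limma adjusted p was 0.00821 in HS and 0.0131 in MC+HS. The HS log2 difference was 2.73 with a pseudocount of 1 and 1.60 with a pseudocount of 64.

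Oasl1 had signals of 763, 1092 and 1733 in HS brains and 784, 924 and 678 in MC+HS brains, against 131, 263 and 142 in mock brains. The groups did not overlap, and this gene had the smallest adjusted p of the family in HS against mock. It rose 5.01-fold in HS (2.32 ± 0.23, limma adjusted p = 0.00364) and 4.25-fold in MC+HS (2.09 ± 0.23, limma adjusted p = 0.00782).

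Oasl2 had signals of 1362, 5643 and 9152 in HS brains and 4412, 5422 and 4582 in MC+HS brains, against 175, 1461 and 248 in mock brains. HS replicate 1 was the low HS array and mock replicate 2 the high mock array, and these overlapped in the deposited signal, while after alignment they lay 0.02 apart on the log2 scale. Oasl2 was 8.01-fold higher in HS (3.00 ± 0.74) and 11.2-fold higher in MC+HS (3.49 ± 0.74), and was the one member that did not pass (limma adjusted p = 0.188 and 0.111). It passed in 5 of 21 alternative settings in each comparison with mock. With quantile normalization its limma adjusted p was 0.0396 in HS and 0.0508 in MC+HS. Without HS replicate 1 it was 12.6-fold higher in HS (3.66 ± 0.58, limma adjusted p = 0.00437) and passed in MC+HS as well (adjusted p = 0.00322). Without mock replicate 2 it was 14.3-fold higher in HS (3.83 ± 0.59, limma adjusted p = 0.0291) and 20.0-fold higher in MC+HS (4.32 ± 0.59, adjusted p = 0.0188).

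**Figure D2:**
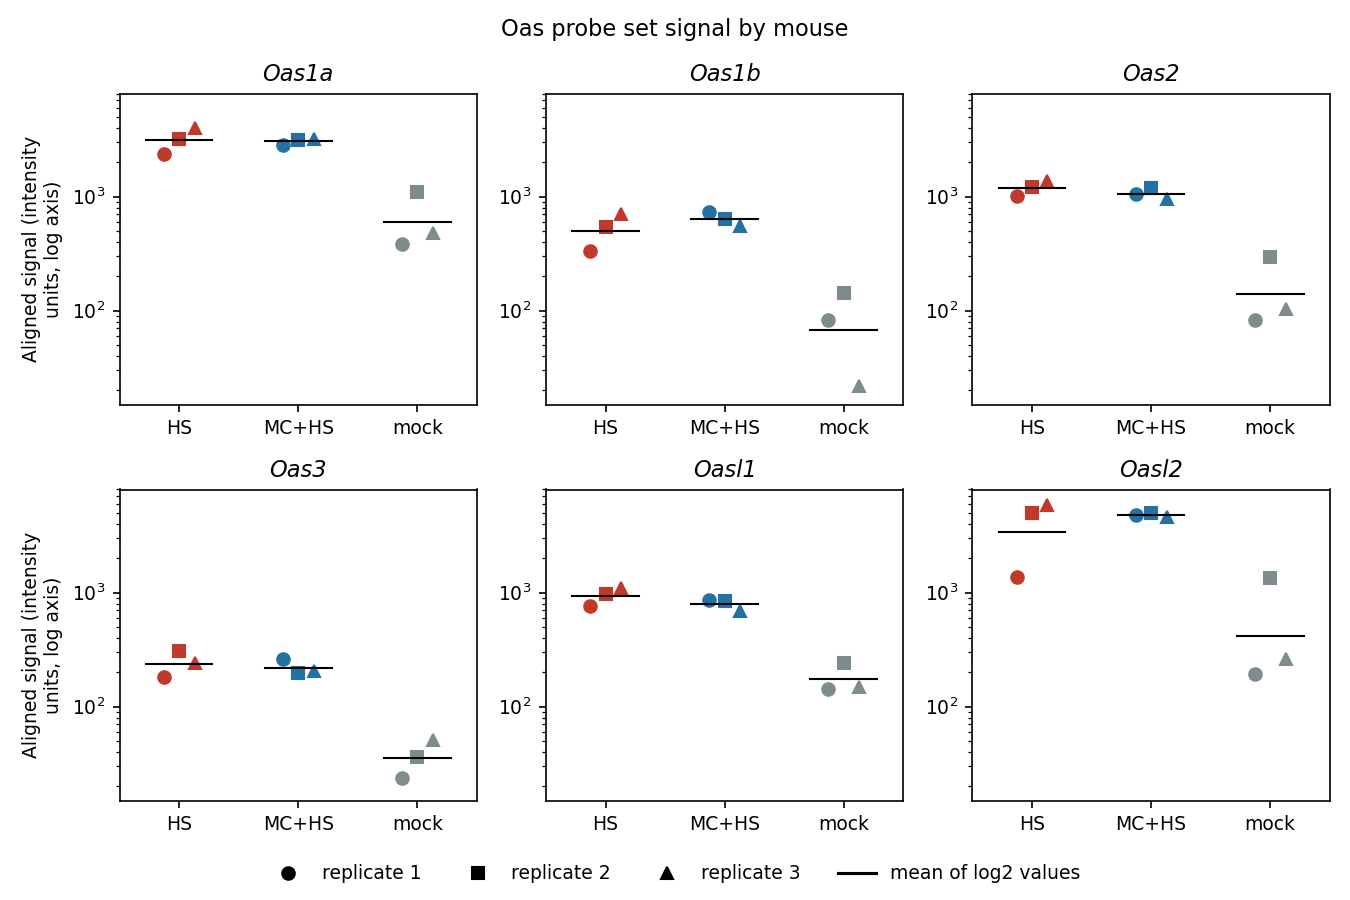
Aligned signal of each Oas probe set (y axis, intensity units, log axis) in HS, MC+HS and mock brains, with a point per mouse, shapes for the replicate number and a line at the mean of the log2 values. Vector arrays sit above mock arrays in every panel, except that HS replicate 1 and mock replicate 2 lie side by side for Oasl2, at 1362 and 1343.

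MC+HS against mock, in which both groups had material taken through the same purification, gave the same count. All 6 genes were higher, by 4.25- to 11.2-fold, and 5 passed, where 0.556% of all probe sets tested were called higher. The median member differed by 2.57 on the log2 scale, against -0.02 over all probe sets tested. After alignment the vector and mock arrays did not overlap for 6 of 6 members in either comparison with mock, which held with the vector group higher for 4.65% of all probe sets in HS against mock and for 8.79% in MC+HS against mock. HS against mock and MC+HS against mock share the mock arrays, so their likeness is not independent. With HS replicate 1 left out, 6 of 6 members passed in both comparisons, where 2.97% of probe sets were called higher in HS against mock and 2.51% in MC+HS against mock. Leaving out mock replicate 2 also gave 6 of 6 in both, with 0.848% of probe sets called higher in HS against mock and 0.670% in MC+HS against mock. Leaving out both, an alternative added after seeing the data, gave 6 of 6 as well (3.53% and 3.03% of probe sets), and Oasl2 was then 22.5-fold higher in HS and 20.0-fold higher in MC+HS.

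The counts fell when other arrays were left out, and so did the share of all probe sets called higher. For HS against mock, 2 of the 6 passed without HS replicate 2, HS replicate 3, mock replicate 1 or mock replicate 3, where 0.239% to 0.304% of all probe sets were called higher. With any single MC+HS array left out 3 passed, at 0.403% to 0.453% of all probe sets. For MC+HS against mock, 0 passed without MC+HS replicate 1, MC+HS replicate 2 or mock replicate 1 (limma; smallest adjusted p of the family 0.0625, 0.0630 and 0.0567), at 0.0357% to 0.103% of all probe sets. The count was 1 of 6 without MC+HS replicate 3 or mock replicate 3 (0.0856% and 0.118%) and 3 of 6 without HS replicate 2 or HS replicate 3 (0.303% and 0.406%). The log2 differences stayed between 1.96 and 3.51 in all of these fits. With the 6 compared arrays alone, 0 of 6 passed in HS against mock (limma; smallest adjusted p 0.0621), at 0.0584% of all probe sets, and 6 of 6 in MC+HS against mock, at 1.98%.

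The vector preparations were then set against each other to ask whether chromatography altered the response of the family. In MC+HS against HS, 0 of 6 members passed, nor did any of the 28257 probe sets (limma; 847, or 3.00%, at an unadjusted p under 0.05). The log2 difference of MC+HS minus HS was -0.04 for Oas1a (95% confidence interval -0.91 to 0.84), 0.33 for Oas1b (-0.75 to 1.40) and -0.16 for Oas2 (-1.03 to 0.71). It was -0.10 for Oas3 (-0.66 to 0.46), -0.24 for Oasl1 (-0.76 to 0.29) and 0.48 for Oasl2 (-1.19 to 2.16). The interval was narrowest for Oasl1 and widest for Oasl2, and none of them shows that the preparations act alike. The signals of the groups overlapped for all 6 members, with the MC+HS arrays lying close together (SD of 0.05 to 0.20 on the log2 scale, n = 3) and the HS arrays wider apart (0.22 to 1.14), while mock arrays spread by 0.37 to 1.46.

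Without HS replicate 1 the MC+HS minus HS difference of Oasl2 turned to -0.17 (-1.46 to 1.11) and that of Oasl1 widened to -0.38 (-0.81 to 0.05; limma adjusted p = 0.703). Oas1a, Oas2 and Oas3 were then at -0.23, -0.28 and -0.28 and Oas1b at 0.04. None of the 6 passed, where 1 of 27973 probe sets (0.00357%) was called higher and 0 lower. All MC+HS arrays then lay below both remaining HS arrays for Oas2, Oasl1 and Oasl2, which held for 16.8% of all probe sets. With all arrays the order of the groups was mock lowest for every member, with the neighbours MC+HS and HS not separated beyond their spread.

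**Figure D3:**
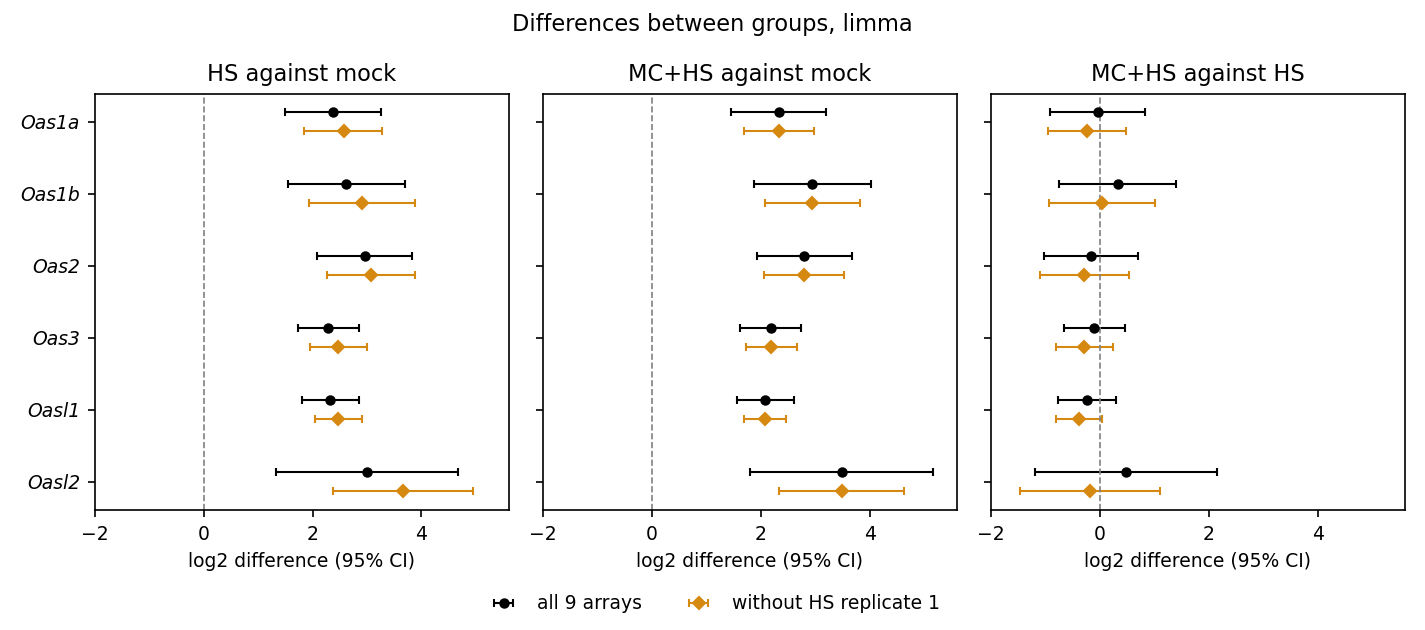
Log2 differences of the 6 Oas probe sets (x axis) with 95% confidence intervals from limma, in 1 panel per comparison, with black circles for all 9 arrays and orange diamonds without HS replicate 1. Differences from mock lie between 2.09 and 3.49 with all arrays, and every interval of MC+HS against HS includes 0.

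Mock replicate 2 carried a raised Oas signal without vector. Relative to the mean of mock replicates 1 and 3 on the log2 scale, it was 5.65-fold higher for Oasl2, 2.88-fold for Oas2, 2.60-fold for Oas1b, 2.49-fold for Oas1a and 1.57-fold for Oasl1, and level for Oas3 (1.01-fold). Mock replicate 2 was the highest mock array for 5 of 6 members, which was so for 33.2% of all probe sets tested. It lay at least 1 log2 unit above the mean of the other mock arrays for 4 of 6 members and for 0.832% of all probe sets. On the same scale the MC+HS arrays lay 19.3- to 20.6-fold above mock replicates 1 and 3 for Oasl2 and 3.16 to 3.46 log2 units for Oas2. These are values of single arrays with no test.

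On the aligned log2 scale HS replicate 1 was lower than the mean of HS replicates 2 and 3 for all 6 members, by 0.36 (Oas2) to 1.97 (Oasl2). The median probe set of the whole table was also lower on that array, with a difference of -0.66, and 35.5% of probe sets were at least 1 log2 unit lower there. Among the members this was so for 1 of 6, Oasl2, and the median difference of the 6 was -0.56. HS replicate 1 had a narrower spread of log2 values (SD 1.54, against 2.17 to 2.39 on the other 8), which aligning medians does not adjust. By percentile on its own array it stood above HS replicates 2 and 3 for Oas1a (98.2 against 95.1 and 96.1), Oas2 and Oasl1. It stood below them for Oas3 and Oasl2 and between them for Oas1b.

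Among the other genes of the pathway, 4 sensors of foreign nucleic acid and 2 interferon regulatory factors rose against mock, while no call was made for the genes that regulate or break down oligoadenylate signals. The lists held 29 names, of which 25 were found as a single symbol and 21 passed the filter. In each comparison with mock 6 of these 21 genes rose and 0 fell, where 0.893% of 13331 genes were called higher in HS against mock and 0.690% in MC+HS against mock, and 0.0375% and 0.0225% lower. In MC+HS against HS 0 of 21 and 0 of all 13331 genes were called (limma).

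Of the other double-stranded RNA sensors, 4 of 7 rose in HS and 4 of 7 in MC+HS, with median log2 differences of 2.01 and 1.88. Zbp1, a sensor of Z-form nucleic acids that can trigger necroptosis, had signals of 969, 1317 and 2065 in HS brains and 772, 987 and 782 in MC+HS brains, against 63.5, 202 and 19.4 in mock brains. It rose by 3.74 ± 0.49 in HS (limma adjusted p = 0.0114) and by 3.31 ± 0.49 in MC+HS (adjusted p = 0.0248), while its second probe set did not pass (2.42 ± 0.82 and 3.42 ± 0.82, limma adjusted p = 0.514 and 0.186). Ifih1, which encodes MDA5, rose by 3.02 ± 0.31 and 2.63 ± 0.31. Ddx58, which encodes RIG-I, rose by 2.01 ± 0.29 and 1.72 ± 0.29, with 1 of its other 2 probe sets past the threshold in both comparisons and 1 in HS but not in MC+HS (1.89 ± 0.38, limma adjusted p = 0.0836). Dhx58, which encodes their regulator LGP2, rose by 2.89 ± 0.41 and 2.67 ± 0.41, although its other tested probe set was at -0.01 ± 0.16 and 0.24 ± 0.16.

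The remaining sensors gave mixed values. Eif2ak2, which encodes the kinase PKR that halts translation on double-stranded RNA, was at 1.34 ± 0.60 and 1.88 ± 0.60 and did not pass through its brightest probe set, with HS replicate 1 at 218 against 1174 and 2108 on the other HS arrays. Both its other probe sets passed in both comparisons, at 1.35 ± 0.19 and 1.94 ± 0.26 in HS (limma adjusted p = 0.0148 and 0.0114). Tlr3, the endosomal receptor, was at 1.37 ± 0.54 and 1.73 ± 0.54 and Adar, the RNA-editing deaminase that limits sensing, at -0.02 ± 0.32 and 0.44 ± 0.32, and neither passed (limma adjusted p of at least 0.480). With HS replicate 1 left out, 6 of 7 sensors rose in HS, all but Adar, and 7 of 7 in MC+HS, where 3.82% and 3.25% of all genes were called higher. The HS difference of Adar then turned to 0.34 ± 0.10 (limma adjusted p = 0.131).

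Transcription factors of the interferon response rose in 2 of 5 cases in each comparison. Irf7, the regulator that Oasl1 represses, had signals of 3366, 3851 and 6859 in HS brains and 3197, 4030 and 3313 in MC+HS brains, against 341, 1246 and 426 in mock brains. It rose by 2.64 ± 0.39 in HS (limma adjusted p = 0.0185) and by 2.56 ± 0.39 in MC+HS (adjusted p = 0.0281). Irf9, the DNA-binding part of the complex that acts on interferon response elements, rose by 1.90 ± 0.32 and 1.82 ± 0.32. Stat2, its partner, was at 1.16 ± 0.40 and 1.32 ± 0.40, Irf1 at 0.73 ± 0.28 and 0.84 ± 0.28 and Irf3 at -0.43 ± 0.49 and 0.18 ± 0.49, none of them past the threshold (limma adjusted p of at least 0.437). A second Stat2 probe set passed in HS (1.20 ± 0.22, limma adjusted p = 0.0484) but not in MC+HS (0.86 ± 0.22, adjusted p = 0.226), and MC+HS against HS was not called for it. Without HS replicate 1, 3 of 5 rose in each comparison, Stat2 with them, and the HS difference of Irf3 turned to 0.27 (limma adjusted p = 0.248).

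Genes that handle oligoadenylates gave 0 calls of 3 in either comparison with mock. Abce1, an ATP-binding protein that recycles ribosomes, had signals of 640, 1995 and 3266 in HS brains and 1563, 1696 and 1440 in MC+HS brains, against 1572, 1841 and 1497 in mock brains, and differed by -0.32 ± 0.40 and -0.09 ± 0.40. Pde12 and Akap7, phosphodiesterases that degrade 2'-5' oligoadenylates, were at -0.00 ± 0.17 and -0.54 ± 0.48 in HS and -0.05 ± 0.17 and 0.04 ± 0.48 in MC+HS (limma adjusted p of at least 0.641 for the 3 genes). Of the partners of Oas1b in mouse flavivirus resistance, 0 of 2 passed, with Abcf3 at -0.57 ± 0.48 and 0.05 ± 0.48 and Osbpl1a at 0.03 ± 0.22 and 0.09 ± 0.22. Abce1, Akap7 and Abcf3 were low on HS replicate 1, at 0.340, 0.249 and 0.253 times the mean of the other HS arrays on the log2 scale. Without that array their HS differences from mock turned to 0.20 ± 0.11, 0.13 ± 0.11 and 0.09 ± 0.11, none past the threshold (limma adjusted p = 0.451, 0.650 and 0.778). Both remaining HS arrays then lay above all mock arrays for these 3 genes, which held for 22.1% of all probe sets.

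No other Oas1 paralog was called. Oas1e, the one that passed the filter on dim probe sets, had signals of 207, 237 and 355 in HS brains and 244, 333 and 248 in MC+HS brains, against 289, 233 and 284 in mock brains, and differed by -0.34 ± 0.17 in HS (limma adjusted p = 0.635) and by less than 0.01 in MC+HS. Oas1c, Oas1f and Oas1h were too dim to be tested, at no more than 148 intensity units on any array. Ifnb1, which encodes interferon beta, was also dim, at 27.9, 120 and 198 in HS brains and 71.9, 113 and 89.5 in MC+HS brains, with every mock array inside the HS range, and gave no call (-0.18 ± 0.39 and 0.07 ± 0.39). The interferon receptor genes Ifnar1 and Ifnar2 gave none either, at -0.39 ± 0.37 and 0.30 ± 0.19 in HS and 0.20 ± 0.37 and 0.18 ± 0.19 in MC+HS. Without HS replicate 1 the HS differences of Ifnb1 and Ifnar1 turned to 0.34 ± 0.20 and 0.10 ± 0.12, again with no call (limma adjusted p = 0.503 and 0.760).

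Mock replicate 2 was also raised for the pathway genes that rose with vector. It was the highest mock array for 6 of the 6 pathway genes called in HS against mock, and lay 3.53-fold above the mean of the other mock arrays for Zbp1, 2.99-fold for Dhx58, 2.73-fold for Irf7 and 2.13-fold for Ifih1. Over all 6 called genes it was 1.71- to 3.53-fold higher, and over the 15 uncalled genes between 0.707-fold (Oas1e) and 2.10-fold (Eif2ak2).

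**Figure D4:**
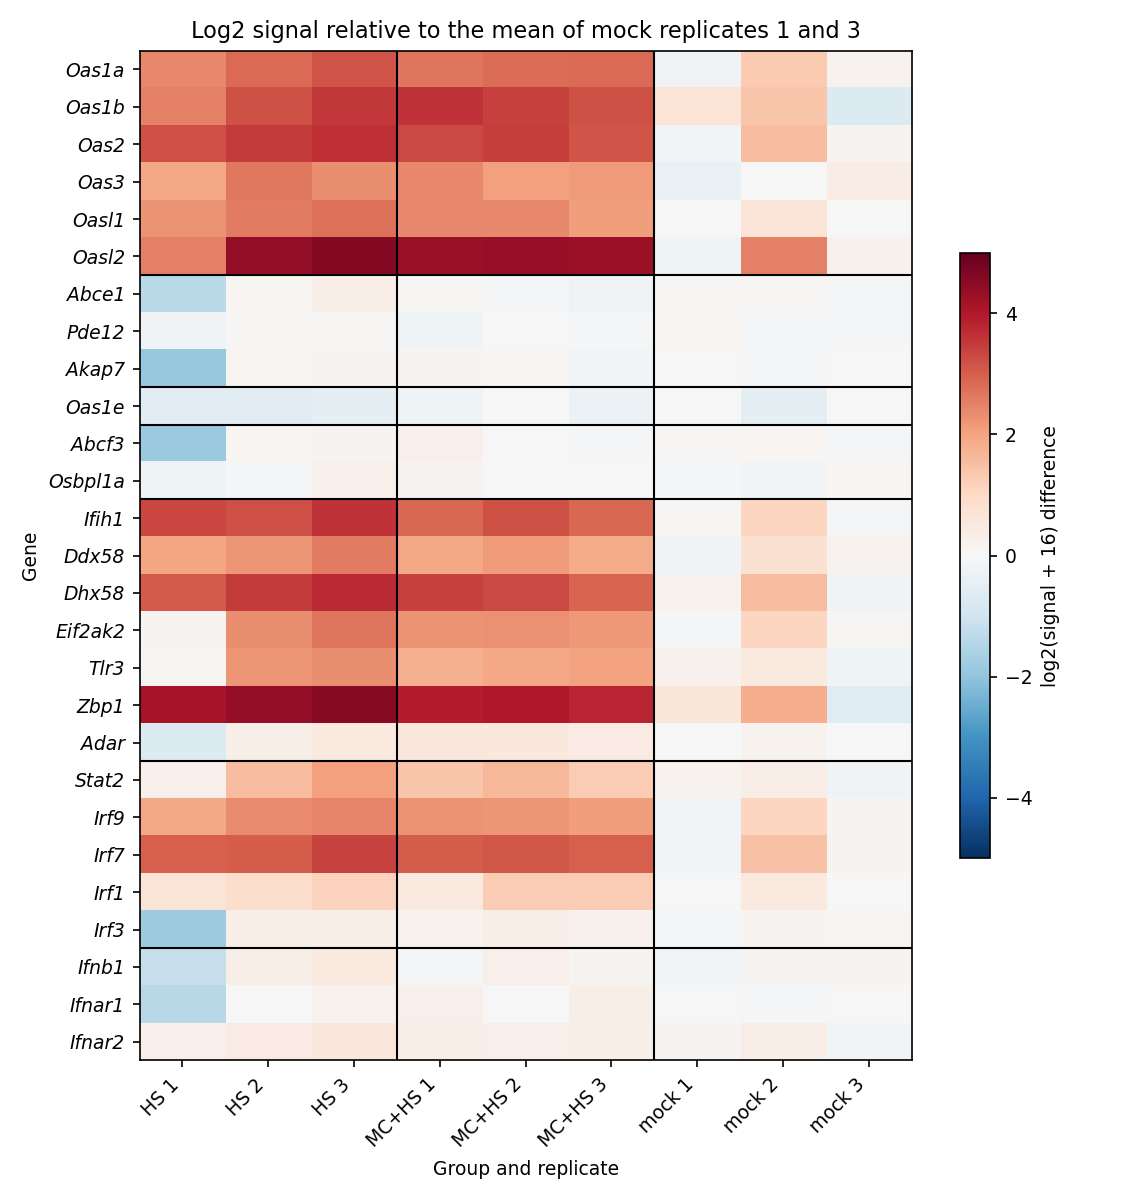
Log2 signal of the 6 Oas genes and 21 pathway genes (rows, with lines between lists) on each array (columns, by group and replicate), relative to the mean of mock replicates 1 and 3, with red for higher and blue for lower. The Oas rows and those of Ifih1, Ddx58, Dhx58, Zbp1, Irf9 and Irf7 are red on all 6 vector arrays and paler on mock replicate 2 (Oas3 is near 0 there), and several rows of other genes are blue on HS replicate 1.

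Genes outside the family whose pattern over the 9 arrays was most like the mean of the 6 members were Uba7, Irf9, Gm9706, Anxa2, Trim30d and Ifi35, with Pearson r of 0.996, 0.996, 0.995, 0.995, 0.995 and 0.994. Uba7 encodes the activating enzyme of ISG15 conjugation, and Irf9 is also in the lists above. Over the 8 arrays without HS replicate 1 they were Slfn8, Ifit1, Usp18, Rsad2, Anxa2 and Tap2, with r between 0.997 and 0.998. With all 9 arrays Slfn8, Ifit1, Usp18, Rsad2 and Anxa2 passed in neither comparison with mock (limma adjusted p of at least 0.0559). Uba7, Irf9, Gm9706, Trim30d, Ifi35 and Tap2 passed in both. Usp18 removes ISG15 and dampens interferon signalling, and Rsad2 encodes the antiviral enzyme viperin. The correlations describe arrays that fall into vector and mock groups, share their alignment and include mock replicate 2, and carry no test. Anxa2, a membrane-binding protein gene, was in both sets of 6, with signals of 1976, 2585 and 4016 in HS brains and 1969, 2469 and 2093 in MC+HS brains, against 667, 1286 and 646 in mock brains.

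Summed markers of neutrophils and NK cells were higher on every vector array than on every mock array, which was not so for monocytes and macrophages in HS or for T cells. The summed aligned signal of 4 named monocyte and macrophage markers ranged from 642 to 1403 in HS brains and 1002 to 1206 in MC+HS brains, against 480 to 782 in mock brains. For 4 neutrophil markers the ranges were 561 to 823 in HS and 361 to 506 in MC+HS, against 193 to 258 in mock, and for 4 NK cell markers 815 to 1356 in HS and 567 to 935 in MC+HS, against 309 to 336 in mock. T cell markers summed to 260 to 287 in HS and 164 to 331 in MC+HS, against 276 to 315 in mock. The sums of 4 microglial markers were 2061 to 3042 in HS and 2345 to 3112 in MC+HS, against 3226 to 3783 in mock. Endothelial markers, 5 in number, summed to 2449 to 6063 in HS and 4580 to 5236 in MC+HS, against 2796 to 3295 in mock. The test called 1 of 4 monocyte and macrophage markers and 1 of 2 NK cell markers higher in each vector group, 2 of 3 neutrophil markers higher in HS and 1 of 3 in MC+HS, and 0 of 2 T cell markers, while 1 of 4 microglial markers was called lower in MC+HS and 0 of 4 in HS. Of all genes, 0.893% were called higher in HS and 0.690% in MC+HS, and 0.0225% lower in MC+HS. No endothelial or astrocyte marker (0 of 5 each) was called with all arrays, while without HS replicate 1 the test called 2 of 5 endothelial markers higher in both vector groups and 3 of 5 astrocyte markers in HS and 2 of 5 in MC+HS, where 3.82% and 3.25% of all genes were. No marker named on the array was at 0 signal, and the median percentile on the mock arrays ran from 26.1 for T cells to 38.0 for monocytes and macrophages among the blood cell types, and was 80.5 for microglia and 61.0 for endothelium. The part of these cells in the Oas differences was not tested.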

How the data were processed

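Each array's values in the deposited table are linear intensity per probe set. GCOS 1.4.0.036 is named in the submitters' processing notes, while the summary method and scaling of the signals are not stated there and no detection calls were used. For each value log2(signal + 16) was taken and array medians were aligned, by up to 0.66. Probe sets had to exceed the 40th percentile of an array on 3 or more arrays, and 64 controls were dropped, so that 28257 of 45101 were tested. Folds are on the log2(signal + 16) scale and understate changes of dim genes. With 3 mice per group, the number of arrays limits the precision.

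The test was limma 3.58.1 in R 4.3.3, with lmFit and trended eBayes over the 9 arrays in 1 model, two-sided, with Benjamini-Hochberg adjustment over all probe sets, called under 0.05. Errors written as ± are the SE of the log2 difference. A gene with several probe sets in the lists was represented by the brightest one that passed. All member probe sets are named, list genes are counted with examples, and the 6 genes most like the family by Pearson r are named. The members and lists were chosen with earlier results of these data known. Scripts were tested on simulated data. Alternatives changed the pseudocount, filter, normalization, variance model, weights, arrays in the fit and replicate block, and left out each array in turn. With group means taken out, 2 of 9 same-numbered pairs of arrays from different groups correlated above 0.1 (highest 0.29). Among pairs with different numbers it was 5 of 18 (highest 0.16). These values do not settle whether replicate numbers pair the arrays, and the main model held group only. Promoter windows are RefSeq's, on GRCm38.p6.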

Additional observations from a re-analysis of the deposited data

How the results depend on the processing

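All 6 Oas genes stayed higher than mock in every alternative that tested them, with log2 differences from 1.49 to 4.49, while the number past the threshold moved. Shares in brackets are those of all probe sets called higher. For HS against mock (5 of 6 as reported) it was 3 with a filter at the 60th percentile (0.683%), where Oas3 was not tested. It was 6 with quantile normalization (0.991%) and with array quality weights (14.2%). With a pseudocount of 1, no filter, no intensity trend or a robust prior it was 4 (0.357% to 0.701%). It was 3 with a replicate block (0.513%), 0 with the 6 compared arrays alone (0.0584%) and 2 to 6 with 1 array left out (0.239% to 2.97%). For MC+HS against mock (5 of 6) it was 3 without a filter (0.244%) and 3 with a replicate block (0.333%). It was 4 with a pseudocount of 1, a filter at the 60th percentile or no alignment of array medians (0.237% to 0.593%). With array quality weights (3.82%) or the 6 compared arrays alone (1.98%) it was 6. With 1 array left out it was 0 to 6 (0.0357% to 2.51%). Leaving out both HS replicate 1 and mock replicate 2, chosen after seeing the data, gave 6 in both (3.53% in HS and 3.03% in MC+HS). For MC+HS against HS (0 of 6) array quality weights gave 1, Oas3, lower by -0.52 (limma adjusted p = 0.0111, against at least 0.773 in its other alternatives). Under these weights 14.3% of all probe sets were called lower and 8.84% higher. The weighting stopped before convergence, with weights of 48.7 for HS replicate 2 and 0.0148 for HS replicate 1. Leaving out 1 array kept it at 0. In MC+HS against HS signs turned for Oasl2 with array weights (-0.07), without HS replicate 1 (-0.17) and without HS replicate 1 and mock replicate 2 (-0.17), for Oas3 without HS replicate 2 (0.07), and for Oas1a without HS replicate 3 (0.14) or MC+HS replicate 1 (0.02). With 1 array left out these differences ran from -0.17 to 0.87 for Oasl2, -0.28 to 0.07 for Oas3 and -0.23 to 0.14 for Oas1a. The cause was not tested. The number of list genes called ranged from 0 to 12 in HS against mock and 0 to 11 in MC+HS against mock. It was 0 in MC+HS against HS except for 2 with array weights, Abce1 (-0.21) and Oas1e (0.38). The 12 came with array weights, where 14.2% of all probe sets were called higher and 13.3% lower in HS against mock. These weights also gave 11 in MC+HS against mock, at 3.82% higher and 3.78% lower. Leaving out HS replicate 1 and mock replicate 2 gave 11 there too (3.03% higher). The counts of 0 came at 0.0584% higher in HS and 0.0357% to 0.103% in MC+HS. The replicate numbers are shared labels, and whether they pair the arrays was not settled. Without detection calls, dim mock signals of Oas3 and Oas1b limit how firmly their folds can be sized.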
